A study of Mus musculus with 8 samples.

Results

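Translation efficiency, the number of ribosome footprints on an mRNA relative to the amount of that mRNA, was compared between Gcn2 knockout (KO) and Gcn2 wild-type (WT) mouse pancreatic tumour cells after 1 h without leucine. The value for a gene is the log2 ratio of its footprints, KO -Leu over WT -Leu, minus the log2 ratio of its RNA, and is called TE ratio here. A gene was measured when its mean count was at least 30 over the 4 libraries of each assay, which held for 9261 of 55536 genes. Of these, 9100 were protein-coding, out of 21425 protein-coding genes in the annotation, and all counts, lists and medians below are over those 9100 unless stated otherwise.

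The cells were KRPC-A, a C57BL/6 line taken from tumours of genetically engineered mice and labelled as resembling pancreatic ductal adenocarcinoma. The groups were Gcn2 KO cells in leucine-free medium (KO -Leu), Gcn2 WT cells in leucine-free medium (WT -Leu), Gcn2 KO cells in amino-acid-replete medium (KO +AA) and Gcn2 WT cells in that replete medium (WT +AA), each after 1 h, with 1 RNA-seq library and 1 ribosome profiling library per group. How the knockout was made, whether the KO cells were 1 clone or a pool, and which tumour alleles KO and WT cells have in common, the sources used here do not give.

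GCN2, encoded by Eif2ak4, is a kinase that senses uncharged transfer RNA when an amino acid runs short. It phosphorylates the initiation factor eIF2alpha, which slows general initiation and lets ribosomes pass the inhibitory upstream open reading frames (uORFs) of a small class of mRNAs, Atf4 among them. mTORC1 is a separate amino acid sensor, and mRNAs that begin with a 5' terminal oligopyrimidine (TOP) stretch, which encode ribosomal proteins and several elongation factors, depend on it for translation. Both kinds of mRNA, and genes that are transcribed quickly after stress, were therefore described as groups.

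The KO -Leu and WT -Leu libraries held 49136610 and 60680169 counted RNA reads, and 4563018 and 2671491 counted footprints. The WT -Leu footprint library was the shallowest of the 8. A measured gene had a median of 203 footprints in KO -Leu and 109 in WT -Leu cells, against 1571 and 2032 RNA reads. Intervals are 95% and cover counting error only, computed as if each read were an independent molecule. Reads amplified by PCR without molecular identifiers are not independent molecules, so the intervals can be too narrow. Because every group is 1 library, no value can be set against a spread between cultures, no p-value was computed, and each ratio compares libraries rather than the genotypes they stand for. A gene is called higher or lower where its log2 ratio reaches 1 or -1, which is 2-fold, with an interval that does not hold 0. Ratios are relative to the other genes of a library, so a general change of translation would not show.

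Markers matched the labelled cell type in part. Summed RNA of 10 duct and epithelial markers was 1096 scaled counts per 1000000 protein-coding reads (CPM) in KO -Leu and 339 CPM in WT -Leu cells, with Sox9 at 744 and 189 CPM and Krt18 at 280 and 106 CPM, which carry most of the sum. Krt19 at 0.224 and 0.321 CPM and Cftr at 1.63 and 2.82 CPM lay the other way, and Epcam was at 0 in both. Fibroblast and mesenchyme markers, chiefly Vim and Col3a1, summed to 3028 and 3527 CPM, while Acta2 at 127 and 28.3 CPM and Pdgfrb at 58.4 and 45.2 CPM lay the other way. Acinar markers were at 0.192 and 0.0495 CPM, with 7 of 8 at 0 in each library, and immune and endothelial markers at 0.575 and 0.915 CPM. Whether these differences in markers have a part in the TE ratios was not tested. In a bulk sample, fewer cells of a type and less RNA per cell cannot be told apart.

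Eif2ak4, the disrupted gene (chromosome 2, GRCm38 positions 118388618 to 118475234, plus strand), had 16.6 RNA CPM in KO -Leu and 70.2 in WT -Leu cells, and 70 and 156 footprint counts. Both assays were called lower in KO -Leu cells, with log2 ratios of -2.08 in RNA and -1.99 in footprints. Its TE ratio was 0.09 (-0.33 to 0.52), so the remaining message carried about as many footprints per RNA read as in WT -Leu cells, within an interval that leaves room for moderate differences.

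Of the 9100 genes, 407 (4.47%) were called higher and 154 (1.69%) lower in TE ratio in KO -Leu cells. The median TE ratio was 0.04, the quartiles were -0.27 and 0.37, the percentiles 5 and 95 were -0.76 and 0.98, and 4896 genes lay above and 4204 below 0. The typical interval reached 0.36 to each side of the value. Footprint ratios alone were called higher for 460 genes (5.05%) and lower for 198 (2.18%), and RNA ratios higher for 263 (2.89%) and lower for 170 (1.87%). With mean counts of at least 100, which 7144 genes had, 241 genes were called higher and 66 lower in TE ratio. Of the genes called, 53 and 23 also lay more than 3 robust SDs from genes of like count.

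Footprints more often carried the TE calls than RNA. Footprint counts were also much lower, with medians of 203 in KO -Leu and 109 in WT -Leu cells against 1571 and 2032 RNA reads. Their ratios thus hold more counting error, and its part in this difference was not tested. Among the 407 genes called higher, 184 also had footprints called higher, 48 had RNA called lower, and 2 of these had both. Among the 154 called lower, 46 had footprints called lower and 32 had RNA called higher. Neither assay alone was called for 177 of the higher and 76 of the lower genes. For these the TE call is the sum of smaller opposite differences in the assays. Across genes, footprint and RNA ratios had a Spearman rho of 0.42, given as a description over genes of the same 4 libraries.

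**Figure D1:**
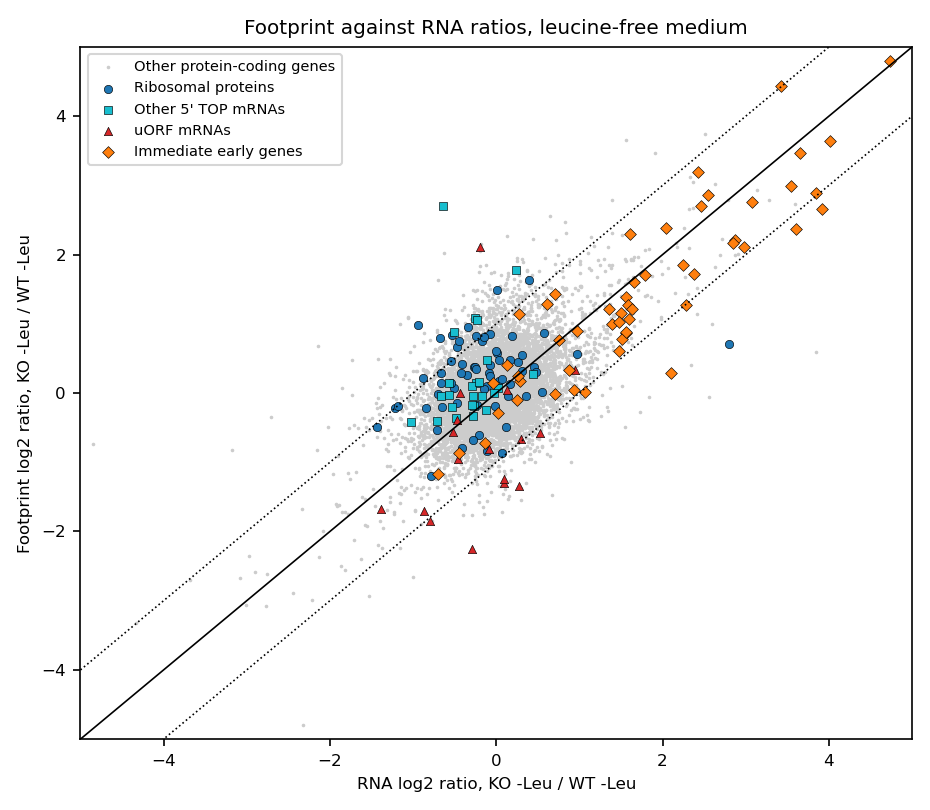
Log2 ratio of RNA (x axis) against log2 ratio of footprints (y axis), KO -Leu over WT -Leu, for the measured protein-coding genes, with 4 gene groups marked. The solid line is a TE ratio of 0 and the dotted lines are TE ratios of 1 and -1. 6 genes outside the axes are not drawn. Most uORF mRNAs lie below the solid line, most ribosomal protein and other 5' TOP mRNAs above it, and immediate early genes run along it at the upper right, mostly just below.

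Messages on the list of uORF mRNAs mostly had lower TE ratios in KO -Leu cells. Like the other lists, it was chosen with earlier results of these data known. Whether each member, Eif1 among them, carries an inhibitory uORF was not checked here. Of 17 measured members, 6 were called lower and 1 higher, 14 were below and 3 above 0, and the median was -0.72. That is 35.3% called lower, against 1.69% of all measured genes. The median footprint ratio was -0.80 and the median RNA ratio -0.20, with 7 members called lower in footprints and 1 in RNA. In replete medium the same members had a median TE ratio of 0.03.

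Atf4, the transcription factor at the centre of the amino acid response (chromosome 15, GRCm38 positions 80255184 to 80257541, plus strand), had 524 RNA CPM in KO -Leu and 489 in WT -Leu cells. Its footprints were 209 CPM in KO -Leu and 516 in WT -Leu cells, from 914 and 1261 counts. The message was thus about equally abundant and held fewer footprints in KO -Leu cells, with 0.400 footprint CPM per RNA CPM against 1.06 in WT -Leu cells. Its TE ratio was -1.40 (-1.53 to -1.27), and -0.66 in replete medium. Counts are over all exons, so footprints on the Atf4 uORFs are included.

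Ifrd1, a transcriptional co-regulator whose message carries a uORF, was the lowest of the group at -1.96 (-2.16 to -1.76). It had 65.7 footprint CPM in KO -Leu and 314 in WT -Leu cells, at 180 and 221 RNA CPM. The phosphatase subunits that reverse eIF2alpha phosphorylation were also called lower. Ppp1r15b, the constitutive subunit, stood at -1.33 (-1.58 to -1.09) with 54.8 and 129 footprint CPM on RNA of 983 and 921 CPM. Ppp1r15a, the inducible subunit also named GADD34, stood at -1.04 (-1.60 to -0.49) with 42 and 85 footprint counts, and lost its call when libraries were scaled by total counts. Its RNA was 12.8 and 22.3 CPM.

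Eif1, an initiation factor that governs start codon choice, had a TE ratio of -1.62 (-2.14 to -1.10) from 51 footprints in KO -Leu and 73 in WT -Leu cells. Ibtk, named for an inhibitor of Bruton's tyrosine kinase, had -1.11 (-1.60 to -0.62), with RNA of 134 and 93.3 CPM and footprints of 17.2 and 25.8 CPM. The members that were not called were Slc35a4 at -0.96, Atf5 at -0.84, Azin1 at -0.72, Cebpb at -0.60, Sat1 at -0.50, Eif5 at -0.28, Tmem184c at -0.08, Slc7a1 at -0.04, Eprs at 0.09 and Mdm2 at 0.43. Eif5, the GTPase-activating factor of initiation, is a case where footprints and RNA fell together, with log2 ratios of -1.67 in footprints and -1.39 in RNA, both called. Ddit3, Cebpa, Amd1, Uchl1 and Ucp2 were on the list and not measured.

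Odc1, the first enzyme of polyamine synthesis, was the exception among uORF mRNAs. Its TE ratio was 2.31 (1.87 to 2.75). It had 83.2 footprint CPM in KO -Leu and 19.2 in WT -Leu cells, from 363 and 47 counts, while RNA was 216 and 248 CPM. In replete medium its TE ratio was 0.06. Azin1 and Sat1, which act in the same pathway as an antizyme inhibitor and a polyamine acetylase, lay on the other side of 0, as above.

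Ribosomal protein mRNAs had higher TE ratios in KO -Leu cells. Of 65 measured members, 12 were called higher and 1 lower, or 18.5% higher against 4.47% of all measured genes, with 49 above and 16 below 0 and a median of 0.48. For proteins of the small subunit the median was 0.58 over 24 members, with 6 called higher and none lower at this depth (21 above and 3 below 0). For the large subunit it was 0.45 over 41 members, with 6 called higher and 1 lower (28 above and 13 below 0), and it was 0.27 with the trend on exonic length removed. In replete medium the 65 had a median of -0.20.

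The difference came from both assays in small steps. The median footprint ratio of the 65 was 0.30, with 46 above 0, and the median RNA ratio was -0.17, with 43 below 0. Rps20 and Rps7 had footprints called higher, and Rpl18, Rpl22l1 and Rps4x had RNA called lower.

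Rps20 had 181 footprint CPM in KO -Leu and 58.5 in WT -Leu cells, on RNA of 107 and 81.1 CPM, from 790 and 143 footprints, and a TE ratio of 1.23. Rpl32 had the highest TE ratio of the large subunit, 1.92 (1.72 to 2.11), with 242 and 122 footprint CPM on RNA of 85.8 and 164 CPM. Rplp0, of the ribosomal stalk, stood at 1.01 (0.90 to 1.13) with 512 and 371 footprint CPM. Also called higher were Rps7 at 1.48, Rps26 at 1.47, Rpl13a at 1.37, Rps21 at 1.30, Rpl26 at 1.21, Rpl38 at 1.07 and Rpl18 at 1.00. Rps7 rests on 41 footprints in KO -Leu and 8 in WT -Leu cells. Rplp0 and Rpl18 lost the call with DESeq2 size factors, Rpl18 also with a prior count of 2, and Rplp0, Rpl38 and Rpl18 lost it with the length trend removed.

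Rpl29 was called lower, at -2.09 (-2.58 to -1.60), through its RNA. It had 13.5 RNA CPM in KO -Leu and 1.93 in WT -Leu cells, from 424 and 78 counts, and 61.9 and 37.7 footprint CPM. Its TE ratio in replete medium was -2.05, so the difference was as large with leucine present. Reads shared by near-identical copies were not counted, and 47 of the 65 have a pseudogene of their name in the annotation, so single values of this family are uncertain. The 18 without one had a median of 0.62, with 15 above 0. Copies under other names were not looked for, so this split cannot show that the 18 are free of such copies. A further 17 ribosomal protein genes were not measured.

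The start of these messages was read from RefSeq for GRCm38.p6, to show how often the called members begin near a pyrimidine stretch. Of 17 members called higher among ribosomal protein and other TOP genes, 12 had an entry, and all 12 are shown. Each run below covers 10 bases before and 20 bases from the annotated start, 5' to 3', with the longest unbroken stretch of C and T in capitals. Annotated starts can differ from those used in these cells, so a stretch is a description and not a TOP element.
Rpl13a: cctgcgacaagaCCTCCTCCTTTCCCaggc
Rpl18: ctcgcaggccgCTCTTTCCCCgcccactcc
Rpl38: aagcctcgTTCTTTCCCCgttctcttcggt
Rps26: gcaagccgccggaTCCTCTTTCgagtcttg
Eef1a1: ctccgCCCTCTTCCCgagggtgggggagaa
Rps7: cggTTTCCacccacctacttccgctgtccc
Eef1b2: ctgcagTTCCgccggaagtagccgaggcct
Rps21, first start: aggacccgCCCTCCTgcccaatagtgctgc
Rps21, other start: agtgagcaggtaggCCTCggtgcgggctgt
Rplp0: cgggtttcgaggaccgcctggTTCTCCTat
Tpt1: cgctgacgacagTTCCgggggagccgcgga
Rpl26: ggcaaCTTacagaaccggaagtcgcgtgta
Pabpc4: aaaaagaaaagaaaagaagaggaaaaaaaa

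The first 5 genes hold stretches of 9 to 14 bases, and the other 7 genes stretches of at most 7, with none in Pabpc4. A stretch of at least 9 bases was thus in the minority among these printed starts. Several printed windows lie inside the annotated span of their gene, among them those of Pabpc4, Tpt1, Eef1a1 and Rpl18. Such a start need not be the 5' end of the message, so the tally cannot show which messages lack a stretch. Its share over all measured genes in the printed window was not computed. The shares below are for a wider window and for stretches of at least 8. The sequences lie at chr7:45128726-45128755 (minus strand), chr7:45718061-45718090 (plus), chr11:114668570-114668599 (plus), chr10:128626487-128626516 (minus), chr9:78481705-78481734 (minus), chr12:28635934-28635963 (minus), chr1:63176821-63176850 (plus), chr2:180257369-180257398 (plus), chr2:180257439-180257468 (plus), chr5:115559457-115559486 (plus), chr14:75845246-75845275 (plus), chr11:68901556-68901585 (plus) and chr4:123282901-123282930 (plus), in the order printed. Within 20 bases of the start on the gene's own strand, a stretch of at least 8 pyrimidines (C or T in any order) stood in 51.0% of the 49 measured ribosomal protein genes with a RefSeq entry, in 42.1% of 19 other TOP genes, in 18.5% of 7297 measured genes and in 18.4% of 27025 genes in the table. Outside these lists the TE ratio did not follow the length of the stretch. The median was 0.04 for 4391 genes with at most 5 pyrimidines in a row and 0.02 for 640 genes with at least 10.

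Other 5' TOP mRNAs, which encode elongation factors, eIF3 subunits and RNA-binding proteins, had a median TE ratio of 0.37 over 25 measured members, with 5 called higher (20%, against 4.47% of all measured genes) and none lower at this depth, and 22 above and 3 below 0. Their median footprint ratio was 0.01 and their median RNA ratio -0.27. Pabpc1, the cytoplasmic poly(A)-binding protein (chromosome 15, GRCm38 positions 36595661 to 36609668, minus strand), stood apart from the rest. It had 2747 footprints in KO -Leu and 237 in WT -Leu cells, 629 and 97.0 CPM, while RNA was 607 and 948 CPM.

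The Pabpc1 TE ratio was therefore 3.34 (3.15 to 3.53), with 1.04 footprint CPM per RNA CPM in KO -Leu and 0.102 in WT -Leu cells. In replete medium it was 0.01. Its relative Pabpc4 had 1.39 (0.83 to 1.95), from 112 and 34 footprints. Tpt1, the translationally controlled tumour protein, had 159 and 46.3 footprint CPM on RNA of 22.9 and 19.5 CPM, a TE ratio of 1.55 (1.22 to 1.87). The annotation holds 6 pseudogenes with the name of Tpt1. Reads shared by near-identical copies were not counted, so the Tpt1 values are uncertain as well.

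The elongation factor subunits Eef1a1 and Eef1b2 had TE ratios of 1.33 (1.24 to 1.42) and 1.29 (1.20 to 1.38). Eef1a1 had 1164 footprint CPM in KO -Leu and 551 in WT -Leu cells, on RNA of 1903 and 2266 CPM. Eef1b2 had 1210 and 581 footprint CPM on RNA of 353 and 414 CPM. The printed start of Eef1a1 lies near a 10-base pyrimidine stretch, and that of Eef1b2 does not. Hnrnpa1 was the lowest of the list at -0.17 (-1.15 to 0.81), from 26 and 12 footprints.

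**Figure D2:**
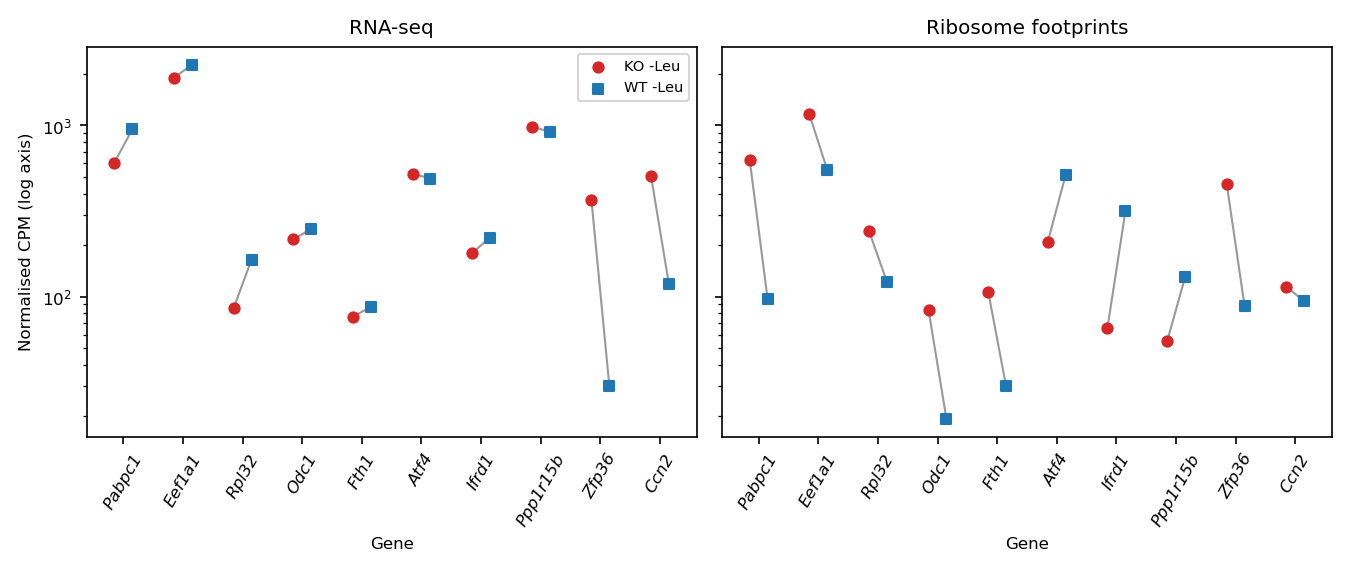
Normalised CPM on a log axis in RNA-seq (left) and ribosome footprints (right) of 10 genes, with KO -Leu as red circles and WT -Leu as blue squares joined by a line, 1 library each. Pabpc1, Eef1a1, Rpl32, Odc1 and Fth1 have more footprints and less RNA in KO -Leu cells, Atf4, Ifrd1 and Ppp1r15b have fewer footprints at similar RNA, and Zfp36 and Ccn2 have more RNA, with a smaller difference in footprints.

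Immediate early genes, whose transcription starts promptly after growth or stress signals without new protein synthesis, were more abundant in KO -Leu cells in both assays, and somewhat less so in footprints. Of 53 measured members, 36 were called higher in RNA and 32 in footprints, with median log2 ratios of 1.56 and 1.22, against 2.89% and 5.05% of all measured genes called higher. TE ratios had a median of -0.37, with 13 above and 40 below 0, 5 called lower (9.43%, against 1.69% of all measured genes) and 1 higher. In replete medium the median was -0.13.

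Ccn2, a secreted matricellular protein also named CTGF, had 505 RNA CPM in KO -Leu and 118 in WT -Leu cells but 114 and 93.8 footprint CPM, a TE ratio of -1.82 (-2.05 to -1.59). Its relative Ccn1 had 2246 and 461 RNA CPM and 2730 and 1132 footprint CPM, a TE ratio of -1.02 (-1.08 to -0.95), which was -0.97 and not called with total counts. Zfp36, which encodes the mRNA decay factor tristetraprolin, had 366 and 30.2 RNA CPM and 453 and 87.6 footprint CPM, a TE ratio of -1.23 (-1.45 to -1.01). For Ccn1 and Zfp36, footprints were called higher and lagged behind RNA, and for Ccn2 footprints differed little.

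Fosb, an AP-1 subunit, had -1.26 (-1.79 to -0.72) and Id3, an inhibitor of helix-loop-helix factors, -1.05 (-1.23 to -0.88). Nr4a1, an orphan nuclear receptor, was the one member called higher, at 1.01 (0.45 to 1.56), with 1087 footprints in KO -Leu and 28 in WT -Leu cells on 3420 and 411 RNA reads. It lost the call with DESeq2 size factors, with a prior count of 2 and with the length trend removed, at 0.91 to 0.99. Its TE ratio in replete medium was 0.94.

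The 15 genes with the highest TE ratios among called genes with mean counts of at least 100 included Gas7, Pabpc1, Git1, Mta1, Odc1, Ift57, Fth1, Rpl32, Arl2bp, Anapc5, Brpf3, Grk2, Rtca and Guk1, and the 15 ended at 1.75. In 12 of the 15, footprints were called higher. Git1, a scaffold that regulates ARF GTPases, had 58.4 footprint CPM in KO -Leu and 14.3 in WT -Leu cells on RNA of 48.5 and 74.9 CPM, a TE ratio of 2.65 (2.13 to 3.16). Mta1, a subunit of the NuRD chromatin complex, had 230 and 74.5 footprint CPM on RNA of 48.1 and 77.8 CPM, and 2.32 (2.08 to 2.57).

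Fth1, the ferritin heavy chain, whose translation is known to be governed by iron through a 5' element, had 107 footprint CPM in KO -Leu and 29.9 in WT -Leu cells on RNA of 76.2 and 87.2 CPM. Its TE ratio was 2.03 (1.66 to 2.39), and -0.13 in replete medium. Fth1 and Odc1 were the called members of the 13 polyamine and iron-responsive mRNAs, with a median of 0.13 that became -0.02 at a mean count minimum of 100. That is 15.4% called higher, against 4.47% of all measured genes. Anapc5, a subunit of the anaphase-promoting complex, had 163 and 61.0 footprint CPM and 1.81 (1.55 to 2.07). Grk2, a kinase of G protein-coupled receptors, had 90.9 and 32.3 footprint CPM and 1.77 (1.42 to 2.12). Ift57, of intraflagellar transport, had 66.0 and 30.7 footprint CPM on RNA of 5.46 and 11.4 CPM, and 2.17 (1.72 to 2.61).

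Gas7, a growth arrest-specific gene, had the highest TE ratio of measured genes with reads in all 4 leucine-free libraries, 7.96 (6.60 to 9.32), through RNA. It had 4 RNA reads in KO -Leu and 2020 in WT -Leu cells, but 259 and 206 footprints. Its TE ratio was 8.43 in replete medium, so this difference was present with leucine. Whether the Gas7 footprint counts in KO cells came from Gas7 mRNA was not tested, so the ratio need not measure translation. Rtca, an RNA cyclase, also rested on RNA, with 2.59 and 6.28 RNA CPM, and had 1.76 (1.19 to 2.34).

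The 15 lowest by the same rule were Rpl29, Ifrd1, Adnp, Rbm3, Ccn2, S100a4, Chml, Chka, Dglucy, Ccdc15, Fancm, Atf4, Tmem206, Col1a1 and Manea, ending at -1.38. Rbm3, a cold-inducible RNA-binding protein, had 15.8 footprint CPM in KO -Leu and 46.3 in WT -Leu cells on RNA of 37.6 and 30.6 CPM, a TE ratio of -1.84 (-2.29 to -1.40). Adnp, a chromatin protein, had 170 and 339 footprint CPM on RNA of only 5.75 and 3.07 CPM, and -1.90 (-2.26 to -1.54). Chka, a choline kinase, had about equal footprints of 81.1 and 92.9 CPM on RNA of 186 and 74.1 CPM, and -1.52 (-1.77 to -1.28).

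S100a4, a calcium-binding protein, and Col1a1, a fibrillar collagen chain, were lower in both assays and more so in footprints. S100a4 had 15.8 footprint CPM in KO -Leu and 100 in WT -Leu cells on RNA of 6.74 and 13.6 CPM, a TE ratio of -1.65 (-2.10 to -1.21). Col1a1 had 26 and 112 footprints, 186 and 698 RNA reads, and -1.39 (-2.04 to -0.74). Fancm, a DNA translocase of the Fanconi anaemia pathway, had 14.2 and 34.4 footprint CPM at similar RNA, and -1.43 (-1.91 to -0.95).

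Among the 33 lists described, 905 of the measured genes had a place, and 37 of these were called higher and 26 lower. Over all 9100 measured genes, 407 (4.47%) were called higher and 154 (1.69%) lower. Initiation factors outside the TOP list had a median of 0.03 over 30 members, with Eif1 called lower and Eif4e, the cap-binding protein, highest at 0.94 (0.59 to 1.30) and not called. Factors for stalled and collided ribosomes had 0.21 over 20, with 16 above 0 and none called. Cytosolic aminoacyl-tRNA synthetases had -0.08 over 22, with none called. Nucleolar ribosome biogenesis factors had -0.06 over 29, again with none called.

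Targets of ATF4 and CHOP, which hold enzymes of amino acid synthesis, had a median TE ratio of -0.08 over 31 members. Their footprints and RNA were lower to a like degree, with medians of -0.45 and -0.33. Phgdh, the first enzyme of serine synthesis, was the member called, at -1.15 (-1.40 to -0.89), with 70.8 footprint CPM in KO -Leu and 82.3 in WT -Leu cells on RNA of 541 and 284 CPM. It was also called lower in replete medium, at -1.36. Amino acid transporters had -0.24 over 14 members, and -0.10 when the count filter was set on the leucine-free libraries alone. Slc38a2, the neutral amino acid transporter SNAT2, was lowest at -0.75 (-0.85 to -0.65), with 387 and 639 footprint CPM on RNA of 604 and 593 CPM.

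Genes of amino acid sensing and mTORC1 had a median of -0.04 over 35, which was 0.01 with total counts. Eif4ebp2, an inhibitor of cap-dependent initiation, was called higher at 1.43 (1.00 to 1.86), with 55.4 footprint CPM in KO -Leu and 21.3 in WT -Leu cells at like RNA, and Kptn, of the KICSTOR complex, lower at -1.10. Among eIF2alpha kinases and phosphatase subunits, 3 of 13 were called lower, the 2 Ppp1r15 genes above and the catalytic subunit Ppp1cc at -1.31, from 22 and 21 footprints. That is 23.1%, against 1.69% of all measured genes, but the list median was 0.09, with 7 above and 6 below 0. The RNA-binding proteins Pcbp2 and Ybx3 were called higher at 1.21 (1.05 to 1.36) and 1.20 (1.08 to 1.32).

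Nuclear-encoded respiratory chain and ATP synthase genes had a median of 0.17 over 68 members, with 6 called higher and 1 lower, but 0.01 with the length trend removed. That is 8.82% higher and 1.47% lower, against 4.47% and 1.69% of all measured genes. Atp5j, an ATP synthase subunit, had 478 footprint CPM in KO -Leu and 362 in WT -Leu cells on RNA of 28.3 and 48.6 CPM, a TE ratio of 1.18 (1.02 to 1.34). Ndufa6, of complex I, had 2.83 from 17 and 99 RNA reads. The other members called higher were Ndufb9 at 1.30, Ndufb11 at 1.23, Cox7c at 1.22 and Cox8a at 1.11, and Ndufb4 was called lower at -1.53, from 12 and 9 footprints. Cox7c and Cox8a lost the call with the length trend removed. Mitochondrial ribosomal proteins had a median of 0.00 over 73, with Mrps18c at 1.54, Mrpl48 at 1.49, Mrpl55 at 1.49 and Mrpl30 at 1.14 called higher and no member called lower. Those called higher are 5.48% of the 73, near the 4.47% of all measured genes. The median of the 73 was below 0 with DESeq2 size factors and with the length trend removed. The 7 mitochondrially encoded messages, which are translated inside mitochondria, had -0.34, with 6 below 0 and none called, and -0.58 with the length trend removed. mt-Nd5 was lowest at -0.77 (-0.83 to -0.71). In replete medium their median was -0.60.

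Secreted matrix and collagen genes had a median of -0.37 over 20 members, with Tnc at -1.93 and Col1a1 called lower and 14 below 0. That is 10% called lower, against 1.69% of all measured genes. Glycolysis genes had -0.19 over 13, with the glucose transporter Slc2a1 at -1.09 (-1.28 to -0.89) and Aldoc at -2.04 called lower (15.4%). Slc2a1 had 142 footprint CPM in KO -Leu and 149 in WT -Leu cells on RNA of 214 and 106 CPM. Sterol and fatty acid synthesis genes had -0.19 over 29 and G2 and mitosis genes -0.21 over 25, with none called in either. Replication-dependent histones had 0.01 over 50, with Hist1h4b at 1.24 and Hist1h2an at 1.23 called higher (4%, against 4.47% of all measured genes). The histone median was below 0 with DESeq2 size factors and with the length trend removed. Giant cytoskeletal and motor proteins had -0.12 over 27, and proteasome subunits 0.09 over 34, with none called.

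The remaining lists had medians between -0.20 and 0.20. Their called members were Hspb8 at -2.47, from 2 and 37 footprints, and Dnaja1 at -1.03, or -0.99 and not called with total counts, among heat shock proteins, Arsa at -1.17 among lysosomal hydrolases, Atp6v0c at -1.09 in the v-ATPase, Actg1 at -2.61 among actins and tubulins, Map1lc3a at 1.07 in autophagy, which lost the call with the length trend removed, and Ccne1 at 1.13 in S phase. Actg1 had 161 RNA reads in KO -Leu and 35 in WT -Leu cells, few for this abundant actin, whose near-identical copies share reads, and it was called higher in replete medium at 1.13. Without genes of mean count under 100, the actin and tubulin median was -0.01 in place of -0.20. Hydrolases of the lysosome, where engulfed protein is broken down, had a median of 0.04 over 41, and -0.01 with mean counts of at least 100.

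**Figure D3:**
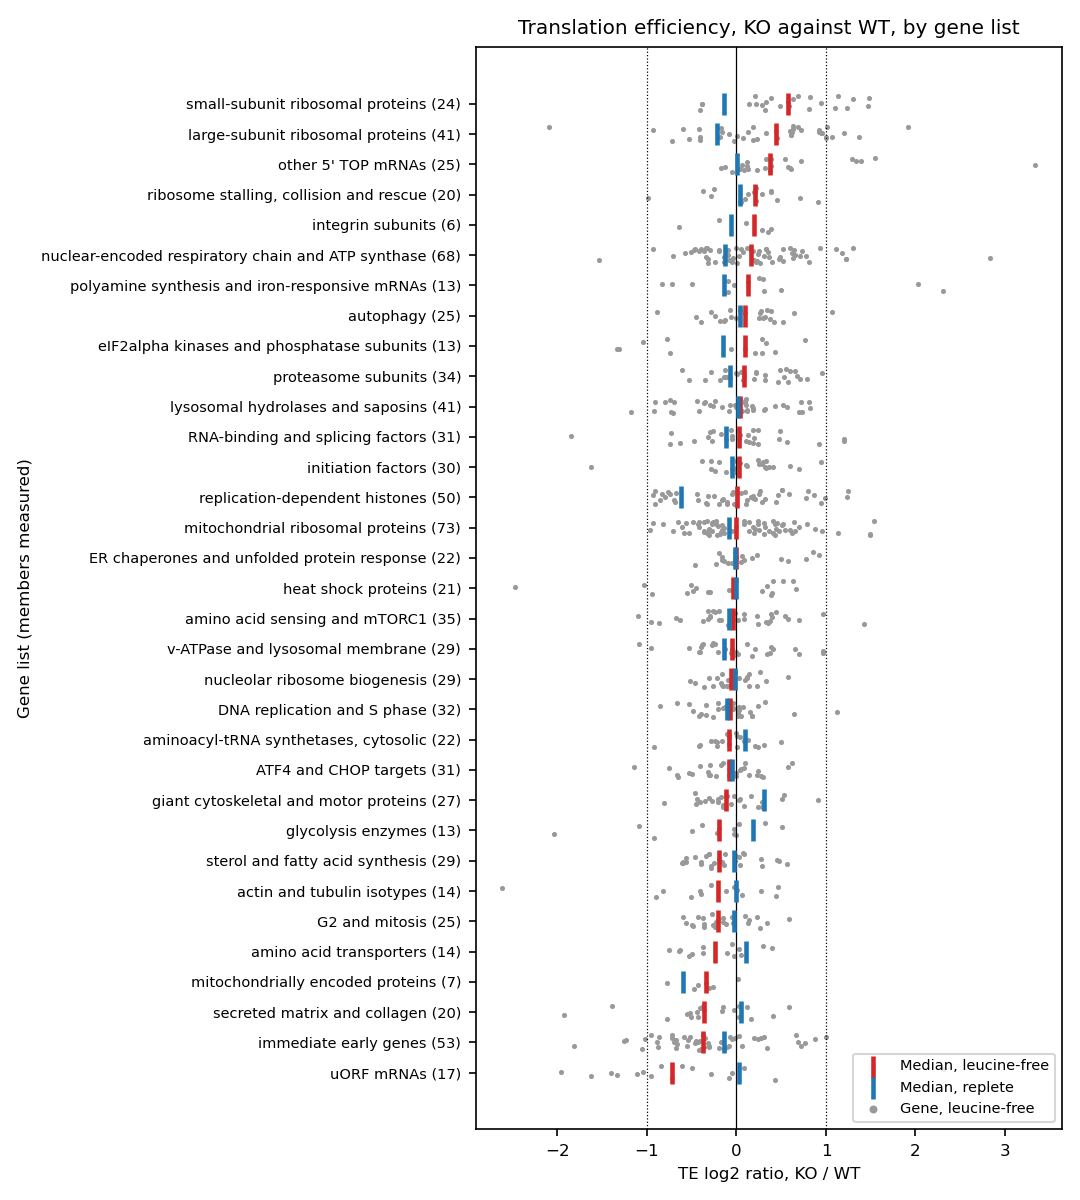
TE ratios, KO -Leu over WT -Leu, of the measured members of the 33 lists (grey points, 1 gene each), with the list median in leucine-free medium (red) and of the same genes in replete medium (blue). Dotted lines mark log2 ratios of 1 and -1. Small-subunit ribosomal proteins are at the top with a median of 0.58 and uORF mRNAs at the bottom with -0.72, where the replete medians are -0.14 and 0.03.

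KO and WT cells were compared in the same way in replete medium, with libraries that the leucine-free comparison does not share. There, 43 genes (0.473%) were called higher and 84 (0.923%) lower. The interquartile range of TE ratios was 0.636 in the leucine-free and 0.413 in the replete comparison. Footprint libraries were deeper with amino acids, at 6921265 reads in KO +AA and 9993211 in WT +AA cells, and the part of depth in the narrower range was not tested. Across genes the TE ratios in the media had a Spearman rho of 0.18.

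Of the 407 genes called higher without leucine, 12 were also called higher in replete medium and 4 were called lower, while 264 had the same sign. Of the 154 called lower without leucine, 10 were also called lower and 3 higher in replete medium, and 98 had the same sign. Both sets were chosen for their leucine-free value, so a smaller replete value follows in part from the choice. Gas7, Rpl29 and Phgdh are among the genes called alike in both media.

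Over all 9100 genes, the leucine-free TE ratio lay above the replete one by more than counting error for 2233 genes (24.5%) and below it for 1452. For 39 of the 65 ribosomal proteins it was higher by that measure, and for 3 it was lower. For other TOP mRNAs it was 17 higher and none lower of 25. For uORF mRNAs it was 2 higher and 11 lower of 17. Giant cytoskeletal proteins, with a replete median of 0.31, had 2 higher and 22 lower of 27, and histones, with a replete median of -0.62, had 29 higher and 2 lower of 50. These are counts against counting error in 8 single libraries.

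**Figure D4:**
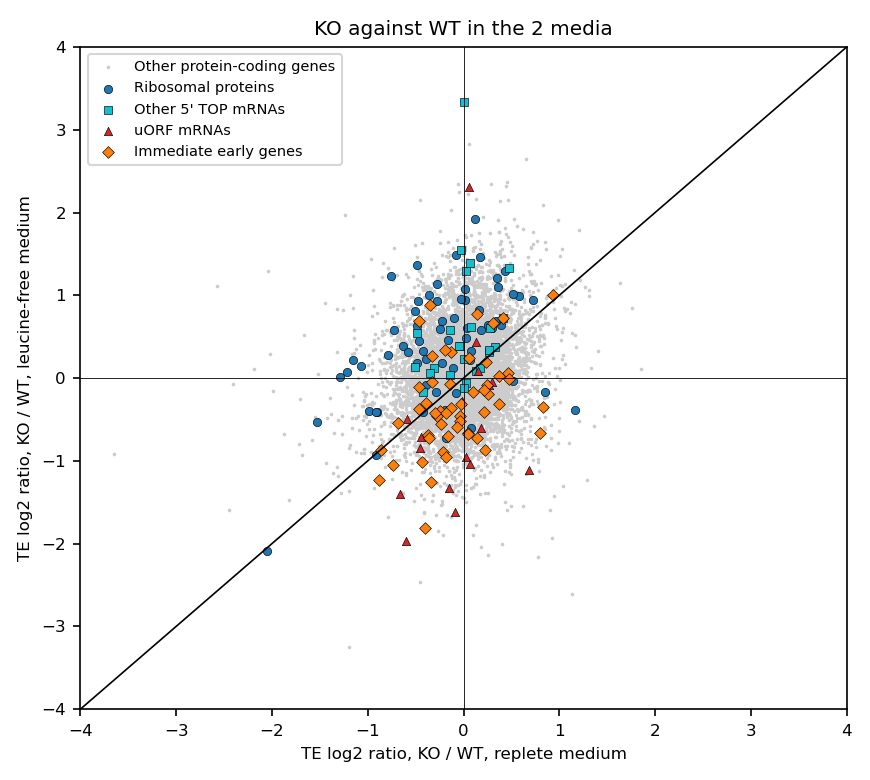
TE ratio, KO over WT, in replete medium (x axis) against leucine-free medium (y axis) for the measured protein-coding genes, with the same 4 groups marked and the line of equal values drawn. The cloud is taller than it is wide, with an interquartile range of 0.636 without leucine and 0.413 with it. Pabpc1 stands at the top with 3.34 without leucine and 0.01 with it, and Rpl29 lies near the line with -2.09 and -2.05.

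TE ratios varied weakly with gene features. In 5 equal bins of exonic length the median was 0.12 for genes of 312 to 2737 nt and -0.02 for genes of 8132 to 123179 nt, and 6.48% and 2.58% of these were called higher. The Spearman rho with length was -0.09 without leucine and 0.15 in replete medium. With RNA level the rho was -0.05. Among the genes of the lowest of 5 bins of RNA level, 8.24% were called higher and 3.68% lower, against 3.74% and 0.659% in the highest bin.

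At the low end of the counts, 10 measured genes had under 10 footprints in KO -Leu and 87 in WT -Leu cells. Of the 87, 29 were called, against 4.47% called higher and 1.69% lower of all measured genes. Calls were more frequent among these 87, but they were picked by the footprint count that the TE ratio divides by. With under 10 WT -Leu footprints, they reached a mean of 30 only through the other libraries. A high KO -Leu over WT -Leu ratio thus follows in part from the choice. At the threshold, Pld1, Lrrc8b and Adck2 were just inside, each with a smaller mean count of 30, and TE ratios of -1.16, 1.03 and 0.14. Lgr6, Opn3 and Galt were just outside with 29.75 and had -0.65, 0.71 and 0.96. Chst11 and Acta1 were chosen after their values were seen. Chst11, a sulfotransferase of chondroitin synthesis, had 0 RNA reads in KO -Leu and 76 in WT -Leu cells, 19.6-fold lower with 3 counts set for the 0, counting error of the 76 reads aside, and 2105 and 851 footprints. By its counting interval the RNA log2 ratio was -3.96 or lower, and the TE ratio depends on the prior count. Whether the Chst11 footprint counts in KO -Leu cells came from Chst11 mRNA was not tested. Acta1, skeletal muscle actin, had the lowest TE ratio of all measured genes, -3.25 (-5.11 to -1.39), from 39 and 3 RNA reads.

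The other 161 members were 126 genes of a non-coding or pseudogene class and 35 with no class. Of these, 22 were called higher and 22 lower, or 13.7% each way against 4.47% and 1.69% of the protein-coding genes, with a median of -0.01. Snhg6 and Snhg8, host genes of small nucleolar RNAs, had 1.56 and 1.68 and were chosen after their values were seen. Snhg6 had 739 and 222 footprint library counts on 553 and 1135 RNA reads. For such RNAs a count in the footprint library need not come from a ribosome, and TE is only the name of the ratio.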

How the data were processed

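The deposited files hold counts of reads per gene over exons, 1 file per library, made by the authors with featureCounts 1.6.4 and Ensembl release 96 gene models, per the file headers; the headers and the submitters' processing notes name GRCm38, and the notes also name cutadapt and STAR. The commands in the file headers set no option for strand or for reads that map to several places, so by default strand was not used and such reads were not counted, and near-identical genes are undercounted. Footprint counts cover whole exons, uORFs and UTRs included.

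From these counts, edgeR 4.0.16 in R 4.3.3 gave TMM factors over protein-coding genes within each assay. Python 3.11.15 with numpy 2.4.6, pandas 2.3.3 and scipy 1.17.1 computed the ratios with a prior count of 0.5, Wald intervals of 95% for TE ratios and Clopper-Pearson intervals for single assays, and matplotlib 3.10.9 drew the plots. A TE level is footprint CPM over RNA CPM. The calculation was tested on simulated data. Gene classes and promoter sequences came from RefSeq by symbol.

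Groups were read from the sample titles, with 1 library in each, and replicate numbers only name samples. Named genes are Eif2ak4 and Atf4, the 15 highest and 15 lowest called genes with mean counts of at least 100, and, of each list, the called members and the extremes; further members complete a list, and a few genes that the rule names are not reported here. Members and lists were chosen with earlier results of these data known. Alternatives were total counts, DESeq2 1.42.0 size factors, other filters, a prior count of 2, a length trend and a robust SD rule.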

Additional observations from a re-analysis of the deposited data

How the results depend on the processing

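The main counts were 407 genes called higher and 154 lower in TE ratio. They were 485 and 130 with total counts, 376 and 165 with DESeq2 size factors, 380 and 148 with a prior count of 2, 353 and 191 with the exonic length trend removed, and 359 and 123 with the filter on the leucine-free libraries. A mean count of 10 gave 491 and 235, a mean count of 100 gave 241 and 66, and no filter beyond 1 count gave 628 and 369. Requiring 3 robust SDs as well gave 53 and 23. The uORF median of -0.72 was -0.50 at a mean count of 100 and -0.60 with no filter. The small-subunit median of 0.58 was 0.48 at a mean count of 10 and with no filter, and 0.47 with the length trend removed, and the large-subunit median of 0.45 was then 0.27. These filters change which genes are tested, and other causes were not tested. Of 83 named genes called, 75 to 83 kept the call under the settings that tested them all, and no sign changed. Medians near 0 changed sign with total counts for ER chaperones (0.04), heat shock proteins (0.01) and amino acid sensing (0.01). No paired analysis was possible because each group is 1 library, and for the same reason none could be left out. Bins of protein length and leucine share were not run. The WT -Leu footprint library, with 2671491 counts the shallowest, limits the precision of TE ratios in leucine-free medium.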

Other observations

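Measured protein-coding genes were also grouped by the letters that begin their symbols, for the 13 beginnings with at least 40 measured genes, a grouping chosen after the data were seen. Genes beginning with Zfp, mostly zinc finger proteins, were the lowest of these groups, with a median TE ratio of -0.16 in KO -Leu over WT -Leu cells over 206 genes. Of them 80 lay above and 126 below 0, 7 were called higher and 12 lower (3.40% and 5.83%, against 4.47% and 1.69% of all measured genes), and the replete median was -0.08. Genes beginning with Rnf, mostly RING finger proteins and many of them ubiquitin ligases, had a median of 0.12. Of these 50, 5 (10%) were called higher and none lower. Genes beginning with Ppp, protein phosphatase subunits, had 1 called higher and 5 lower of 53 (1.89% and 9.43%) at a median of 0.01. Ppp1r15a, Ppp1r15b and Ppp1cc, described above, are among those called lower.

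Among measured genes outside the protein-coding class, the pseudogene Tpt1-ps3 had a TE ratio of 4.27, with 87 footprint library counts in KO -Leu and 5 in WT -Leu cells on 23 and 62 RNA reads. Its parent gene Tpt1 stood at 1.55. Reads from such close copies cannot be told apart with certainty.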
